A study of Mus musculus with 4 samples.

Results

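The 9 genes described here encode the proteins by which leukocytes stick to a vessel wall: the endothelial ligands Vcam1, Icam1 and Icam2, the selectins Sele and Selp, and the integrin chains Itga4, Itgb1, Itgal and Itgb2. They were taken by symbol from the 34097 genes of the deposited count tables, and each of the 9 symbols matched 1 gene. The data are single-cell RNA counts from transplanted mouse hearts collected 5 days after surgery and digested with enzymes. Allogeneic grafts, from a donor that differs genetically from the recipient, gave 3 libraries (replicates 1, 2 and 3). A graft between genetically matched mice, called isogeneic in the sample labels and syngeneic in the series' text, gave 1 library (replicate 2). The labels name no strain, age, drug, allele or cell sort for either group, and do not say whether the replicates are separate animals, so each p-value reflects no more than the variation among these libraries.

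Leukocytes leave the blood in steps. Selectins on activated endothelium catch passing cells by their sugars and let them roll, chemokines switch leukocyte integrins to a binding state, and the integrins then hold the cell on immunoglobulin-type ligands of the vessel wall. The chains of Itga4 and Itgb1 together form VLA-4, which binds VCAM-1, and those of Itgal and Itgb2 form LFA-1, which binds ICAM-1 and ICAM-2. In blood vessels ICAM-2 is made constitutively, whereas VCAM-1, ICAM-1 and E-selectin (Sele) are classically induced by inflammatory cytokines through NF-kB. P-selectin (Selp) is stored in granules of endothelial cells and platelets, so its transcript and its surface protein need not move together.

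The promoters of 3 ligand genes are shown because their cytokine elements are part of how these genes are usually described. They are the 250 bases before the RefSeq start site (GRCm38.p6), 5′ to 3′ on the plus strand, on which all 3 genes lie. Capitals mark matches on either strand to GGNNNTTCC (an NF-kB type element), TTCNNNGAA (a STAT type element) or TATAAA. Of the 9 genes, 5 had an entry in the RefSeq promoter table (Icam1, Sele, Selp, Itga4 and Itgb1).
Icam1, chr9:21015690-21015939: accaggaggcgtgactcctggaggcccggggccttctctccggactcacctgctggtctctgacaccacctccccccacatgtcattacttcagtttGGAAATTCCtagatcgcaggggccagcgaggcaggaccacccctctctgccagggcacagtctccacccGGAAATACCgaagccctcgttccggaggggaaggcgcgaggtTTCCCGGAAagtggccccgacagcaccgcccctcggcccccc
Sele, chr1:164047984-164048233: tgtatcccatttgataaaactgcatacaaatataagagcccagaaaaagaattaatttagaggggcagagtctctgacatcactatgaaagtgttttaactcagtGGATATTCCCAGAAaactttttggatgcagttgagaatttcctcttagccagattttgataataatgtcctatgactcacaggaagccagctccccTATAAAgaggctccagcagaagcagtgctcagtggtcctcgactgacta
Selp, chr1:164115014-164115263: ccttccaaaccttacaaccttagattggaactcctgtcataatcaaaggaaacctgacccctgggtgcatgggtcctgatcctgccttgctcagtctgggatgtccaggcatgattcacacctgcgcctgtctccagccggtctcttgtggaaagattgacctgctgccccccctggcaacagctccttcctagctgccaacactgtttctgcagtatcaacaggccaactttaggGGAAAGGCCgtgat
The Icam1 window held GGAAATTCC, a match on both strands, 153 to 145 bases before the start, a second NF-kB type match at 84 to 76 and a STAT type match at 42 to 34. In Sele the NF-kB type match (145 to 137) overlapped a STAT type match (140 to 132), and TATAAA stood at 49 to 44. Selp had 1 NF-kB type match, on the minus strand at 14 to 6, Itgb1 had 1 at 164 to 156, and no match was found in the Itga4 window. Such letters are common: of 32851 promoter windows of RefSeq, 15.7% held GGNNNTTCC, 7.02% TTCNNNGAA and 12.4% TATAAA. A match describes the sequence only.

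Cells were assigned by marker genes that exclude the 9 adhesion genes. A cell was called endothelial, mural (pericyte or smooth muscle), fibroblast, heart muscle or leukocyte when UMIs (unique molecular identifiers, each counting 1 captured transcript) were seen for at least 5 or 6 of that lineage's 10 to 13 markers, and cells that passed for more than 1 lineage were left out. This gave 197, 580 and 457 endothelial cells in allogeneic replicates 1, 2 and 3 and 938 in the isogeneic library. Mural cells numbered 15, 31, 32 and 205 and leukocytes 3583, 5310, 2247 and 2731 in the same order. Levels are given as CPM (the UMIs of a gene per 1000000 UMIs of that class in that library). Pecam1, Cdh5, Kdr and Egfl7, 4 of the 12 endothelial gate markers, summed to 3013 to 4095 CPM in endothelial cells and 10.2 to 46.8 CPM in mural cells. As the gate used these genes, their levels are no separate check of cell identity. Total depth was 51054446 to 100038951 UMIs per library. Endothelial cells of the 4 libraries had medians of 6970, 5144.5, 2792 and 3452 UMIs per cell, in the order above. Allogeneic replicate 3 stood apart from the other allogeneic libraries in several of the values below, and results that turn on it are given with and without it. Between 7 and 30 cell barcodes were shared by any pair of libraries.

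Vcam1 was the member with the clearest difference between the grafts. In all endothelial cells it was at 1625, 1533 and 1728 CPM in the 3 allogeneic libraries against 187 CPM in the isogeneic library. The groups did not overlap, and the allogeneic mean of 1629 ± 97.4 CPM (SD, n = 3) was 8.72 times the isogeneic value. The log2 difference was 3.18 (SE 0.25), with an adjusted p of 0.00279 by edgeR's quasi-likelihood test on UMIs summed per library, Benjamini-Hochberg adjusted over all genes tested. It was the only 1 of the 9 genes to rise in endothelial cells (0 fell), where 2.66% of 12124 genes rose and 1.28% fell. At an unadjusted p under 0.05, 2 of the 9 were higher and 0 lower, beside 2496 of the 12124 genes in either direction. DESeq2 also called 2 higher and 0 lower, beside 619 genes in all. The test has 2 residual degrees of freedom and takes the lone isogeneic library to vary like the allogeneic ones. An exact permutation test of 3 libraries against 1 cannot give a p below 0.25.

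The rise of Vcam1 was present in each endothelial subset that could be tested. In capillary cells it was at 1634, 1458 and 1547 CPM in allogeneic grafts and 61.1 CPM in the isogeneic graft, 25.3 times lower than the allogeneic mean. This was a log2 difference of 4.69 (SE 0.34, adjusted p = 5.63e-05). In arterial cells the levels were 1577, 1541 and 2001 CPM against 351.5, a log2 difference of 2.22 (SE 0.37, adjusted p = 0.000337). Venous cells were at 1843 and 2620 CPM in allogeneic replicates 2 and 3 and at 380.2 in the isogeneic library. On these 3 libraries the venous log2 difference was 2.60 (SE 0.41, adjusted p = 0.000511). Allogeneic replicate 1, with 6 venous cells and 118 Vcam1 UMIs, was at 2248 CPM and did not enter that fit. All values of the 3 subsets lay above the isogeneic value of the same subset. The 6 fibroblast genes summed to 1130 and 1008 CPM in venous cells of allogeneic replicates 2 and 3 against 578 CPM in the isogeneic library, and Dcn, 1 of them, was among the 10 leading genes of allogeneic venous cells. Fibroblasts themselves had Vcam1 at 1747 and 1015 CPM in these allogeneic libraries against 308, and the part of such transcripts in the venous result was not tested.

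The spread between subsets was therefore wide in the isogeneic graft and narrow in the allogeneic grafts. In the isogeneic library Vcam1 was 61.1 CPM in capillary, 351.5 in arterial and 380.2 in venous cells, while in the allogeneic libraries with at least 20 cells of a subset it ran from 1458 to 2620 CPM over the same subsets. The allogeneic effect was smaller in venous than in capillary cells by 2.08 on the log2 scale (difference of the effects -2.08, SE 0.27, adjusted p = 4.45e-11 by edgeR's quasi-likelihood test). Of 10566 genes, 0.284% passed this test of the difference, which rests on 3 libraries and 1 residual degree of freedom. Among the 10 leading genes of the isogeneic venous cells by fold was Tagln, a mural marker, and Rgs5, Kcnj8 and Myh11 summed to 75.4 CPM there and to 63.3 CPM in isogeneic capillary cells. In the allogeneic libraries these 3 mural genes summed to 0 to 18.6 CPM in venous and 0.866 to 9.28 CPM in capillary cells, and their part in the result was not tested.

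Smaller subsets had the same order of values. Endocardial cells, which line the heart chambers, had Vcam1 at 2316, 3862 and 2766 CPM in allogeneic grafts (5, 9 and 7 cells) and 212 CPM in the isogeneic graft (32 cells). Lymphatic endothelial cells had far fewer transcripts, with 20, 21 and 4 UMIs in allogeneic grafts against 1 UMI in the isogeneic graft. These came to 956, 330 and 16.5 CPM against 3.73, and the 24 lymphatic cells of allogeneic replicate 3 thus had a lower level than any other allogeneic endothelial subset. No test was run on either subset because of the low cell numbers.

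**Figure D1:**
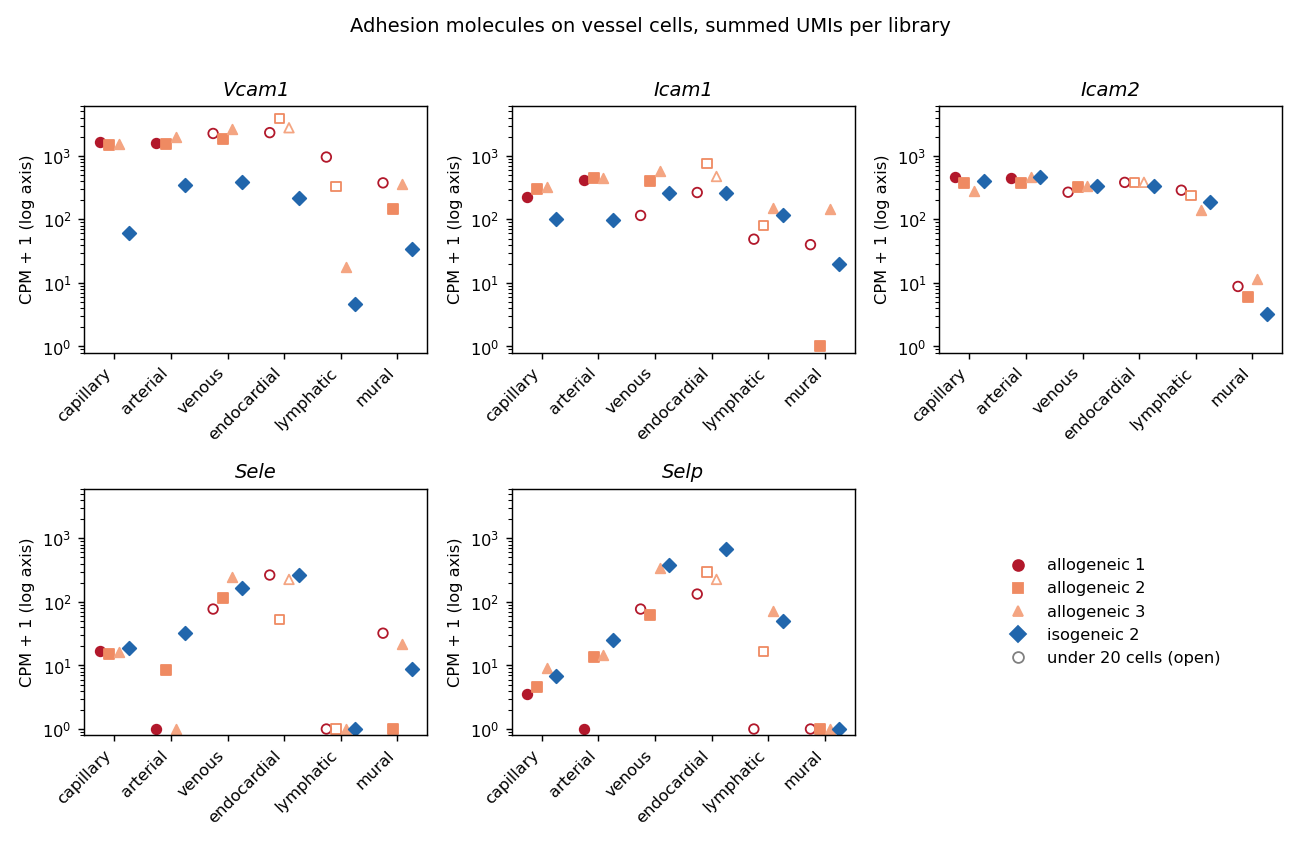
Levels of Vcam1, Icam1, Icam2, Sele and Selp (CPM + 1, log axis) by vessel wall class, with 1 point per library, allogeneic libraries in red shades, the isogeneic library in blue and open points for fewer than 20 cells. Allogeneic points of Vcam1 lie between 1458 and 2620 CPM in capillary, arterial and venous cells, above the isogeneic points at 61.1 to 380.2 CPM, while the points of Icam2 in these subsets mix.

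Icam1, the ICAM ligand that cytokines induce, rose in capillary and arterial cells. Capillary cells had 223, 301 and 323 CPM in allogeneic grafts and 98.8 CPM in the isogeneic graft, a log2 difference of 1.55 (SE 0.32, adjusted p = 0.0151). Arterial cells had 414, 443.5 and 453 CPM against 97.0, a log2 difference of 2.11 (SE 0.39, adjusted p = 0.00108). Both subsets were separated in every library. In capillary cells 2 of the 7 members that passed the filter on low counts rose and 0 fell, where 4.4% of 10732 genes rose and 3.96% fell. In arterial cells 2 of 4 rose and 0 fell, where 5.01% of 6343 genes rose and 4.02% fell, and in both subsets the 2 were Vcam1 and Icam1. DESeq2 called the same number of members in each, 2 higher and 0 lower, beside 494 genes in all in capillary and 220 in arterial cells.

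In venous cells Icam1 did not pass. It was at 395 and 585 CPM in allogeneic replicates 2 and 3 and at 258 CPM in the isogeneic library, a log2 difference of 0.98 (SE 0.42, adjusted p = 0.321). The 6 venous cells of allogeneic replicate 1, outside that fit, had 114 CPM from 6 UMIs, below the isogeneic value. Vcam1 was the 1 member of 6 that rose there (0 fell), where 3.3% of 7127 genes rose and 1.36% fell. Over all endothelial cells Icam1 was at 255, 344 and 376 CPM against 149, a log2 difference of 1.18 (SE 0.29, adjusted p = 0.0846). The allogeneic mean was 325 ± 62.7 CPM (SD, n = 3), and each allogeneic library lay above the isogeneic one. Leaving out 1 allogeneic library at a time gave log2 differences of 1.11 to 1.34 for Icam1. By DESeq2 on all 4 libraries its adjusted p was 0.00729.

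Icam2, the constitutive ICAM, had overlapping levels in the 2 groups. All endothelial cells had 428, 359 and 294 CPM in allogeneic grafts and 376 in the isogeneic graft, with an adjusted p of 0.999 (SE of the log2 difference 0.27). It did not pass in capillary (458, 378 and 282 against 407 CPM), arterial (443, 375 and 458 against 456) or venous cells (318 and 335 against 335). An SE of 0.27 on the log2 scale leaves room for a modest difference in either direction.

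The selectins followed another pattern. Sele was at 26.8, 18.8 and 66.9 CPM in allogeneic endothelial cells and 67.1 CPM in isogeneic ones (log2 difference -0.80, SE 0.60, adjusted p = 0.505). Selp was at 11.3, 13.6 and 88.1 CPM against 136 (log2 difference -1.82, SE 0.94, adjusted p = 0.333), from 19, 49, 187 and 626 UMIs. For Sele allogeneic replicate 3 was close to the isogeneic library, and for Selp it lay between that library and the other allogeneic ones. Replicates 1 and 2 were well below the isogeneic library for both genes. Without allogeneic replicate 3 the log2 differences were -1.53 for Sele and -3.31 for Selp. Under 14 other settings, fits with a library left out included, both differences stayed negative. The side of the threshold was unchanged in 13 of them for Sele and 12 for Selp, and each newly passed in the rest.

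The share of venous cells among endothelial cells differed in the same libraries. It was 3.05%, 4.83% and 16.0% in allogeneic replicates 1, 2 and 3 and 28.4% in the isogeneic library (exact 95% binomial intervals 1.13 to 6.51, 3.23 to 6.90, 12.7 to 19.7 and 25.5 to 31.4%). Of the endothelial Selp UMIs, 21.1%, 22.4%, 77.5% and 78.1% came from venous cells, and of the Sele UMIs 8.89%, 30.9%, 75.4% and 68.8%. Part of the venous call rests on Vwf, which was itself at 10.7, 7.75 and 36.3 CPM in allogeneic and 153 CPM in isogeneic endothelial cells (adjusted p = 0.0606). Another of the 7 venous markers, Mgp, was among the 10 leading genes of allogeneic fibroblasts and of allogeneic arterial cells. Of the 10 leading genes of isogeneic venous cells, 1 (Vwf) was a venous marker. Gated fibroblasts numbered 35, 77 and 1358 in allogeneic grafts and 4527 in the isogeneic graft, and their part in the venous share was not tested.

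Within the venous subset neither selectin passed a test between the grafts. Venous Sele was at 115 and 249 CPM in allogeneic replicates 2 and 3 and 167 in the isogeneic library (log2 difference 0.23, SE 0.46, adjusted p = 0.942). Venous Selp was at 60.4 CPM (11 UMIs) and 338 CPM (145 UMIs) against 384 CPM (489 UMIs), a log2 difference of -0.80 (SE 0.56, adjusted p = 0.683). The 6 venous cells of allogeneic replicate 1 gave 4 UMIs of each gene, 76.2 CPM. For Selp allogeneic replicate 2 was thus low and replicate 3 lay near the isogeneic level.

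Within libraries the selectins separated venous from capillary cells more than the other ligands did. The venous minus capillary log2 difference was 5.41 for Selp (SE 0.28, adjusted p = 5.58e-09) and 3.38 for Sele (SE 0.23, adjusted p = 1.07e-07), with library as a block. It was 1.14 for Vcam1 (SE 0.27, adjusted p = 0.0246) and 0.88 for Icam1 (SE 0.17, adjusted p = 0.00461). These 4 members rose in venous relative to capillary cells and 0 fell, where 3.04% of 9642 genes rose and 0.996% fell. For Icam2 the difference was -0.12 (adjusted p = 0.857). Capillary Selp came from 3, 9, 8 and 13 UMIs in the 4 libraries, so that its fold carries a large counting error. With the allogeneic libraries alone, the difference was 0.56 for Vcam1, which still passed, and 0.65 for Icam1, which did not (adjusted p = 0.072).

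Selectin transcripts were also seen outside venous and capillary cells. Isogeneic endocardial cells had 680 CPM of Selp (96 UMIs) and 269 CPM of Sele (38 UMIs), and the allogeneic ones had 132, 292 and 225 CPM of Selp from 9, 17 and 10 UMIs and 264, 51.5 and 225 CPM of Sele from 18, 3 and 10 UMIs. Lymphatic cells held no Sele UMI in any library, and their Selp was at 0, 15.7 and 70.2 CPM in allogeneic grafts (0, 1 and 17 UMIs) against 48.5 CPM (13 UMIs). Selp was also seen in neutrophils, at 31.9, 42.4 and 27.3 CPM in allogeneic grafts and 33.6 in the isogeneic graft, from 4 to 21 UMIs. The effect on Selp differed between endothelial cells and leukocytes by -2.91 on the log2 scale (SE 0.43, adjusted p = 0.00738), in a test of the difference that 4.98% of 16626 genes passed. Against monocytes or macrophages, a pairing added after seeing the data, the difference was -5.43 (SE 0.59, adjusted p = 0.00176), where 3.53% of 15382 genes passed.

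**Figure D2:**
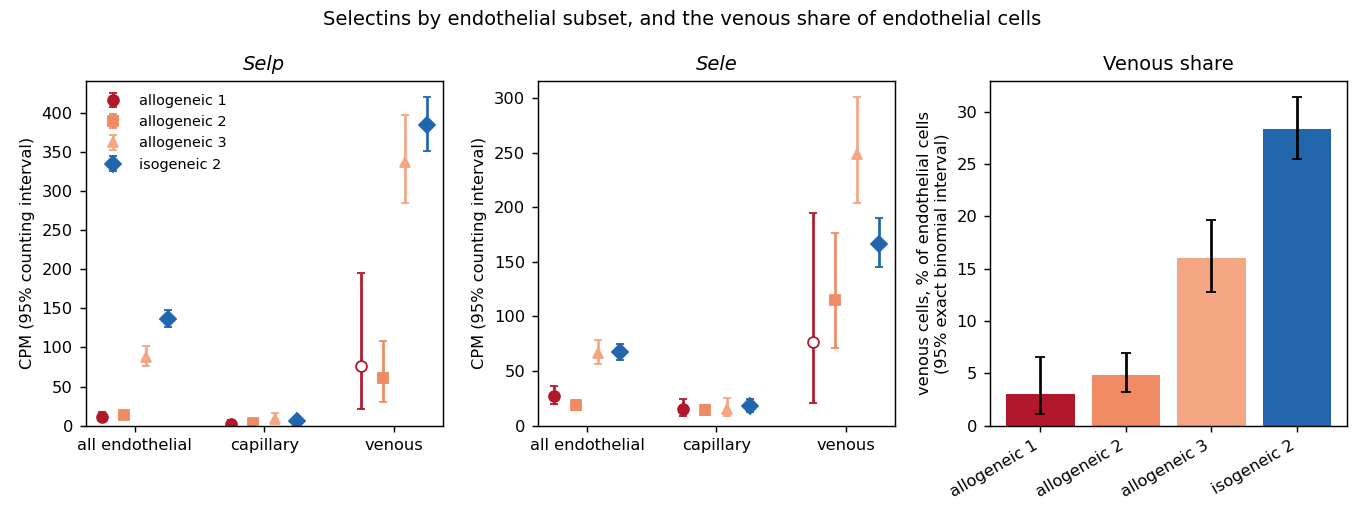
Selp and Sele (CPM, with 95% counting intervals as bars) in all endothelial, capillary and venous cells of each library, and the venous share of endothelial cells (percent, exact 95% binomial intervals), with an open point for fewer than 20 cells. Venous Selp runs from 60.4 to 384 CPM and capillary Selp from 2.60 to 8.25 CPM, and allogeneic replicate 3 and the isogeneic library have the larger venous shares, 16.0% and 28.4%.

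Mural cells wrap the endothelium and can carry VCAM-1. Their Vcam1 was at 375, 142 and 359 CPM in allogeneic grafts and 33.0 CPM in the isogeneic graft, from 48, 28, 68 and 30 UMIs. All 3 allogeneic values were above the isogeneic one, and the log2 difference was 3.0 (SE 0.59, adjusted p = 0.00553). It was the 1 of 4 members past the filter that rose (0 fell), where 3.19% of 4615 genes rose and 0.78% fell. With cells of 2 lineages kept, the difference was 1.88 and no longer passed (adjusted p = 0.0593). Mural Icam1 came from 5, 0 and 27 UMIs in allogeneic and 17 in isogeneic cells and did not pass (log2 difference 1.61, SE 1.04, adjusted p = 0.564). The effect on Vcam1 did not pass a test of the difference between endothelial and mural cells (0.38, SE 0.58, adjusted p = 1), where 0.975% of 12098 genes passed.

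Mural cells with these Vcam1 levels also held transcripts of other cells. The 13 leukocyte reference genes summed to 1022, 849.6 and 232 CPM in allogeneic mural cells and 522 in isogeneic ones, and the 6 fibroblast genes to 726, 936 and 2494 against 901 CPM. Fibroblast Vcam1 was 684, 1747 and 1015 CPM in allogeneic and 308 CPM in isogeneic cells, and the part of these transcripts in the mural result was not tested. The mural marker Rgs5 was lower in the allogeneic libraries, at 796, 636 and 1403 CPM against 3537 (log2 difference -2.01, adjusted p = 0.0172).

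Between the 2 vessel wall types, 5 members were higher in endothelial than in mural cells of the same library (Icam2, Icam1, Vcam1, Sele and Selp) and 1, Itga4, was lower. In the 3 libraries with at least 20 mural cells the log2 difference was 6.25 for Icam2 (adjusted p = 1.36e-06), 2.69 for Icam1 (adjusted p = 0.00349), 2.62 for Vcam1 (adjusted p = 5.86e-05) and 2.55 for Sele (adjusted p = 0.00168). Of 10698 genes, 10.9% were higher and 11.8% lower in endothelial cells by this test. Selp had no UMI in mural cells of any library, so its endothelial level was at least 41.4-fold higher in the isogeneic library and at least 5.90-fold higher in the allogeneic group, against a floor of 3 counts over each group. Of the 255 allogeneic UMIs behind that bound 187 came from replicate 3, and without it, a step added after seeing the data, the bound was 1.39-fold. Itga4 was lower in endothelial than in mural cells by a log2 difference of -3.92 (adjusted p = 0.000159). That fit rests on 15, 1 and 26 mural UMIs in allogeneic replicates 2 and 3 and the isogeneic library. The 11 mural UMIs of allogeneic replicate 1 did not enter it. Itgb1 was at 1170, 1236 and 912 CPM in allogeneic and 999.6 CPM in isogeneic mural cells and did not pass against endothelial cells (-0.52, adjusted p = 0.163).

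The shares of cells with a UMI were compared after each cell was thinned to 2000 UMIs, since depth per cell differed. Vcam1 was seen in 82.9%, 79.3% and 77.3% of allogeneic endothelial cells and 18.6% of isogeneic ones, with exact 95% intervals of 76.6 to 88.1, 75.6 to 82.7, 72.5 to 81.7 and 15.9 to 21.6%. Before thinning the shares were 90.9%, 90.0%, 77.2% and 26.0%, and 16, 53, 122 and 202 shallower cells were left out. T cells, which are not known for Vcam1, gave 2.56%, 4.67% and 3.14% in allogeneic grafts at median depths of 6364.5, 5165.5 and 4548 UMIs, and 1 of 11 cells in the isogeneic library. The endothelial share lay above the T-cell share and its interval in each allogeneic library. In the isogeneic library the exact interval of 1 in 11 T cells, 0.230 to 41.3%, covers the endothelial share. In mural cells the thinned share was 26.7%, 10.0% and 37.0% against 4.67%, and the isogeneic interval of 1.90 to 9.38% covers the allogeneic T-cell shares.

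Cells that carried both induced ligands were likewise more frequent in the allogeneic grafts. Vcam1 and Icam1 were seen together in 33.1%, 37.4% and 34.3% of thinned allogeneic endothelial cells and in 6.25% of isogeneic ones (exact interval 4.61 to 8.25%). Icam1, with or without Vcam1, gave 37.6%, 43.1% and 38.5% against 18.2%. The joint share moves with the single shares of Vcam1 and Icam1, and whether the 2 ligands go together in a cell was not tested. The selectins were seen in few cells: venous Selp in 15.4% and 28.1% of cells in allogeneic replicates 2 and 3 and 31.5% in the isogeneic library, and venous Sele in 15.4%, 24.6% and 23.3%. The exact intervals of these venous shares overlap between the groups. These intervals cover counting error only and carry no test between groups.

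**Figure D3:**
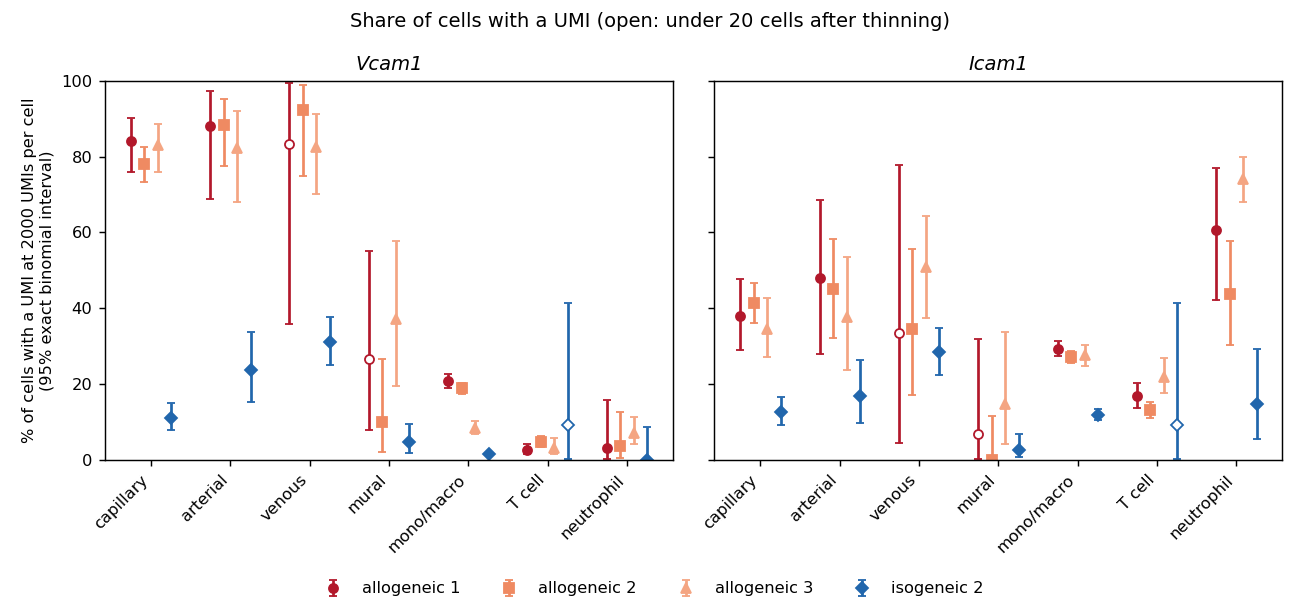
Share of cells with at least 1 UMI of Vcam1 or Icam1 after thinning to 2000 UMIs per cell (percent), by cell class and library, with exact 95% binomial intervals as bars and open points for fewer than 20 cells. Vcam1 was seen in 78.2% to 84.1% of allogeneic and 11.1% of isogeneic capillary cells.

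On the leukocyte side the alpha chains Itga4 and Itgal rose. Over all leukocytes Itga4, the alpha chain of VLA-4, was at 184, 181 and 193 CPM in allogeneic grafts and 43.1 CPM in the isogeneic graft (log2 difference 1.87, SE 0.16, adjusted p = 0.0149). Itgal, the alpha chain of LFA-1, was at 96.6, 83.9 and 73.5 CPM against 8.54 (log2 difference 3.08, SE 0.27, adjusted p = 0.0150). Neither gene's groups overlapped. These were the 2 of 9 members that rose in leukocytes (0 fell), where 3.86% of 17443 genes rose and 3.93% fell. By DESeq2 5 members were higher and 0 lower, beside 2875 genes called in all. At an unadjusted p under 0.05 there were also 5 and 0, beside 5284 of the 17443 genes in either direction. The beta partners of Itga4 and Itgal did not pass: Itgb1 was at 306, 292 and 220 CPM against 203 (adjusted p = 0.653), and Itgb2 at 293, 280.1 and 160 CPM against 74.3 (log2 difference 1.49, SE 0.45, adjusted p = 0.111). Without allogeneic replicate 3, the Itgb2 log2 difference was 1.80.

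The makeup of the leukocytes differed between the groups. T cells numbered 634, 1208 and 346 in allogeneic grafts against 25 in the isogeneic graft, and natural killer (NK) cells 95, 134, 148 and 10. Monocytes or macrophages numbered 1994, 2994, 1084 and 2334, and neutrophils 49, 83, 306 and 199. The integrin chains were therefore followed class by class.

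In monocytes or macrophages Itga4 was at 115, 118 and 159 CPM in allogeneic grafts and 35.9 in the isogeneic graft (log2 difference 1.82, SE 0.26, adjusted p = 0.0267). Itgal was at 67.6, 55.8 and 45.1 CPM against 4.53 (log2 difference 3.60, SE 0.36, adjusted p = 0.0145). Icam1, which these cells also make, was at 185, 178 and 187 CPM against 74.2 (log2 difference 1.27, SE 0.18, adjusted p = 0.0260). All 3 genes were separated between the groups, and they were the 3 of 9 that rose (0 fell), where 3.89% of 15720 genes rose and 2.75% fell. DESeq2 called 5 higher and 0 lower, beside 2054 genes in all. The Icam1 call was lost without allogeneic replicate 1 (adjusted p = 0.0881) or replicate 2 (adjusted p = 0.0918), at 1.26 and 1.27 on the log2 scale.

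The 2 members called by DESeq2 but not by edgeR in this class were Vcam1 and Itgb2. Vcam1 was at 183, 176 and 65.7 CPM against 9.96, with an adjusted p of 0.0579 (log2 difference 3.81, SE 0.80). Itgb2, the beta chain shared by LFA-1 and other leukocyte integrins, was at 372, 356 and 206 CPM against 69.7, with an adjusted p of 0.0608 (log2 difference 2.13, SE 0.46). In both genes allogeneic replicate 3 lay between the other allogeneic libraries and the isogeneic one. Leaving out 1 allogeneic library at a time gave log2 differences of 3.58 to 4.20 for Vcam1 and 1.98 to 2.41 for Itgb2.

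This class is itself of different makeup in the 2 groups. Cells with UMIs of C1qa, C1qb and Mrc1, genes of resident-type macrophages, made up 17.0%, 11.9% and 8.95% of it in allogeneic grafts against 48.4% in the isogeneic graft, and Ly6c2, a gene of inflammatory monocytes, was at 357, 329 and 592 CPM against 21.9. A split of the class by those 3 genes, chosen after seeing the data, was fitted part by part. Among cells with all 3, Itgal was at 48.5, 41.6 and 32.0 CPM against 1.11 (log2 difference 5.20, adjusted p = 0.00364, 9 isogeneic UMIs) and Itga4 at 89.3, 98.1 and 87.4 against 31.7 (1.53, adjusted p = 0.0173). Vcam1 passed there, at 252, 247 and 86.4 CPM against 10.0 (4.30, SE 0.73, adjusted p = 0.0233), as did Icam1, at 181, 172 and 209.7 CPM against 76.5 (1.29, adjusted p = 0.0327). These were 4 of 7 members, with 0 lower, where 4.52% of 12528 genes rose and 3.12% fell. Among the remaining cells Itgal (2.72, adjusted p = 0.0297), Itga4 (1.70, adjusted p = 0.0402) and Icam1 (1.33, adjusted p = 0.0304) passed, 3 of 9 with 0 lower, where 2.81% of 14793 genes rose and 1.64% fell. Itga4, Itgal and Icam1 were thus higher in the allogeneic grafts in both parts. The split did not make the groups alike in makeup: among cells with all 3 genes, Ly6c2 was at 216, 167 and 126 CPM against 3.47, and Plac8, another monocyte gene, at 579, 578 and 539.8 against 62.6. Folr2, a gene of resident-type macrophages, was at 23.0, 17.9 and 99.0 CPM against 245. The part of makeup in the results of this class was not tested.

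In neutrophils Icam1 rose and the integrin chains did not pass. Icam1 was at 1149, 747 and 1467 CPM in allogeneic neutrophils and 199 CPM in isogeneic ones, from 144, 141, 1129 and 65 UMIs (log2 difference 2.68, SE 0.74, adjusted p = 0.0169). It was the 1 of 7 members that rose (0 fell), where 5.49% of 3897 genes rose and 0.795% fell. The call was lost without allogeneic replicate 1 (adjusted p = 0.141), without replicate 2 (adjusted p = 0.103) and under 3 other settings, with values from 2.14 to 2.94. Neutrophil Itgal was at 176, 122 and 104 CPM against 156, and Itgb2 at 207, 201 and 133 against 247, with the isogeneic library inside or above the allogeneic range. Neutrophil Itga4 was at 311, 159 and 301 CPM against 140.5 (log2 difference 1.05, SE 0.64, adjusted p = 0.492).

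T cells had the integrin chains at levels that gave no call. Itgal was at 144, 125 and 104 CPM in allogeneic T cells and 189 CPM in isogeneic ones, and Itgb1 at 444, 421 and 243 against 525. Itga4 was at 351, 324 and 222 CPM against 126, a log2 difference of 1.59 (SE 0.49, adjusted p = 0.463). The isogeneic values rest on 9, 25 and 6 UMIs in 25 cells. With edgeR 0 of 7 members and 0 of 12012 genes passed (0%), 1 member and 1129 genes at an unadjusted p under 0.05, and DESeq2 called 0 members and 34 genes. The median log2 difference of all genes tested was 0.96 in T cells, beside 47660 UMIs in all isogeneic T cells together.

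NK cells had the highest mean Itgal of any class. It was at 372, 327 and 176 CPM in the allogeneic libraries, from 185 to 264 UMIs, and 2 UMIs were counted in the 10 isogeneic NK cells. After thinning, 58.5%, 57.3% and 35.4% of allogeneic NK cells had an Itgal UMI. Dendritic cells had Itga4 at 239.5, 292 and 270.4 CPM in allogeneic grafts and 257 in the isogeneic graft, with the isogeneic value inside the allogeneic range. Endothelial cells had 1 to 10 UMIs of Itgal in each library, 0.218 to 3.58 CPM.

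Both chains of an integrin were detected together more often in allogeneic leukocytes. Itga4 with Itgb1 was seen in 12.8%, 12.5% and 10.3% of thinned allogeneic leukocytes and 3.28% of isogeneic ones (exact interval 2.60 to 4.07%). Itgal with Itgb2 was seen in 7.47%, 6.20% and 3.38% against 0.498% (exact interval 0.258 to 0.868%). The same chain pair was at or below 0.190% of thinned allogeneic endothelial cells. Since these are shares of all leukocytes, they move with the class makeup given above.

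**Figure D4:**
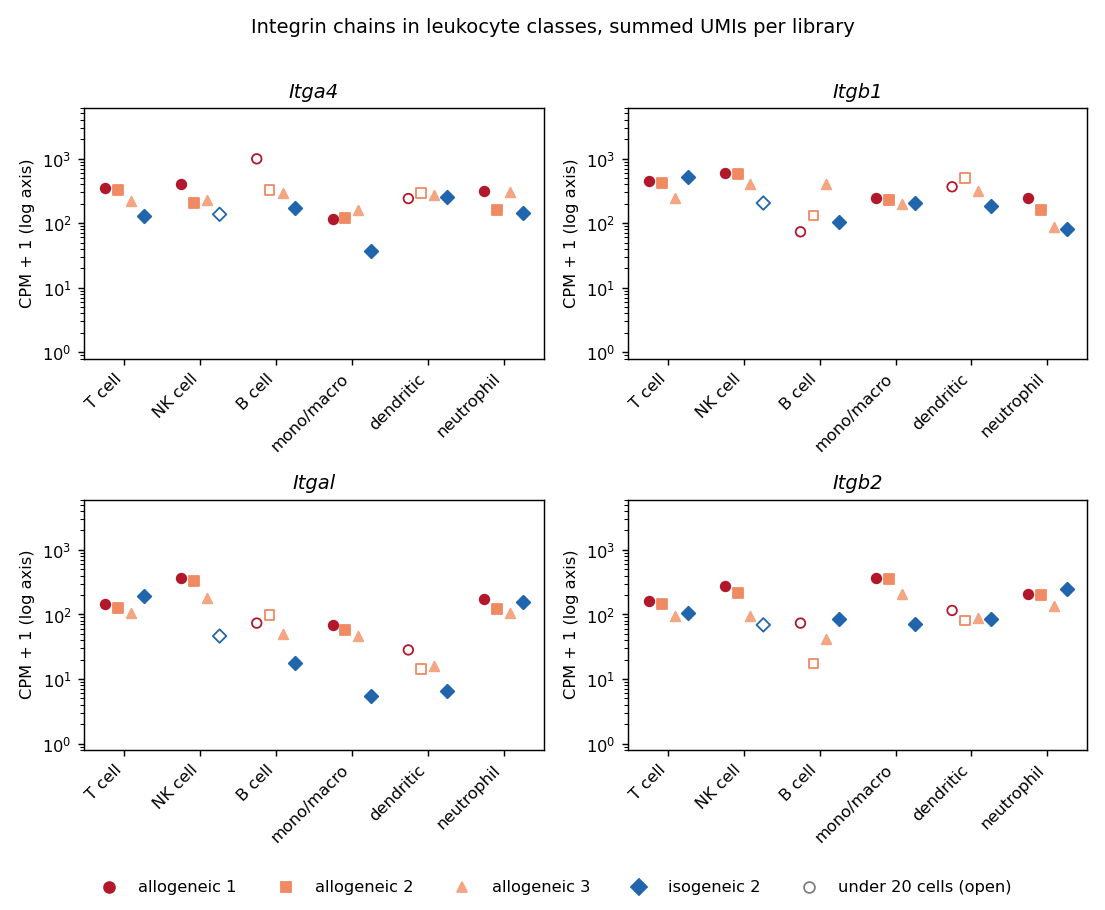
Itga4, Itgb1, Itgal and Itgb2 (CPM + 1, log axis) by leukocyte class, with 1 point per library and open points for fewer than 20 cells. In monocytes or macrophages the allogeneic points of Itgal lie at 45.1 to 67.6 CPM and the isogeneic point at 4.53 CPM, whereas the points of Itgb1 lie close together at 194 to 243 CPM.

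**Figure D5:**
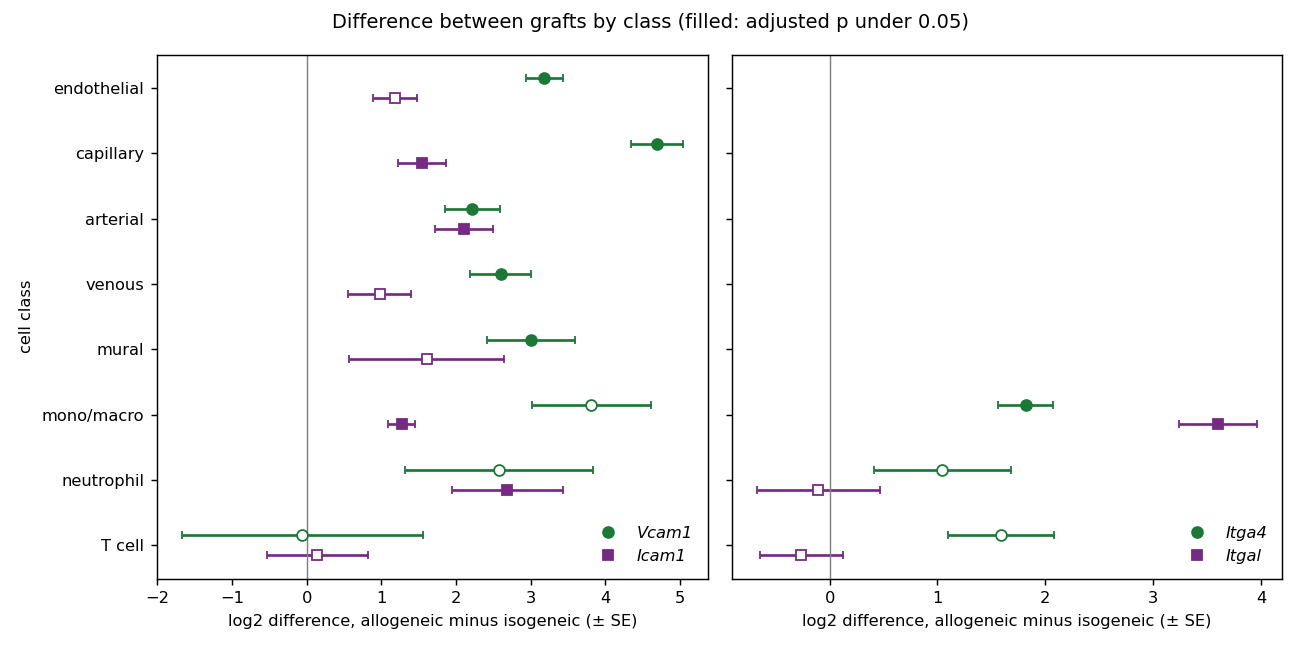
Allogeneic minus isogeneic log2 differences by cell class, Vcam1 and Icam1 on the left and Itga4 and Itgal on the right, with bars of 1 approximate SE and filled points for an adjusted p under 0.05. The largest filled value for Vcam1 is 4.69 in capillary cells, and no filled point lies below 0.

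The order of classes was taken from the mean level over libraries with at least 20 cells, so that classes are not always averaged over the same libraries, and neighbours were tested in 1 fit with library as a block. For Vcam1 it ran from venous (1614 CPM) over arterial (1368) and capillary cells (1175) to endocardial (212, isogeneic library only) and mural cells (178). The place of endocardial cells rests on that 1 library: their Vcam1 was above that of capillary cells in each of the 4 libraries, and the fitted capillary minus endocardial difference was -0.15 (adjusted p = 0.986). Of 11 neighbouring pairs 3 differed, 2 of them in the order of the means. Neutrophils stood above T cells (2.03, adjusted p = 0.00229, in a pair where 57.6% of 11818 genes passed). Endocardial cells passed over mural cells (2.57, adjusted p = 0.0221, 6.3% of genes), with the spread of the lone endocardial library taken from the other classes. NK cells, averaged over 3 libraries at 24.0 CPM, lay below neutrophils, averaged over 4 at 23.9 CPM, in the fit (-1.625, adjusted p = 0.0209, 52.2% of genes). Venous did not differ from arterial cells, nor arterial from capillary cells, in this fit, and venous and capillary cells differed in the direct test given above.

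For Icam1 neutrophils (890.3 CPM) stood above venous cells (413), by 1.77 on the log2 scale (adjusted p = 0.00086), in a pair where 51.3% of genes passed, and no other neighbours differed. Icam2 had its 5 highest levels in the 5 endothelial subsets, and lymphatic cells, the lowest of these (165 CPM), stood above B cells by 3.51 (adjusted p = 0.000219, 17.9% of genes), the 1 pair that differed. For Sele the step from venous (177 CPM) to capillary cells (15.6 CPM) passed at 3.16 (adjusted p = 6.77e-06, 1.6% of genes), and so did the step from monocytes or macrophages (0.547 CPM) to T cells (0.0940 CPM; adjusted p = 0.046, 54% of genes). For Selp 3 of 11 steps passed: venous (261 CPM) over lymphatic cells (59.3; adjusted p = 0.00368, 4.85% of genes), neutrophils (33.8) over arterial cells (12.6; adjusted p = 0.0121, 51.4%), and capillary cells (5.06) over monocytes or macrophages (1.81; adjusted p = 0.0415, 49.1%).

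Among the integrin chains, Itga4 had similar means in NK cells, dendritic cells, T cells, B cells and neutrophils (228 to 278 CPM), none of which differed from its neighbour within that range. The 3 steps below it passed. Monocytes or macrophages were 1.73 below neutrophils (adjusted p = 0.000423, 46.8% of genes), mural cells (36.7 CPM) were next (adjusted p = 0.0151, 40.3%), and arterial cells (8.57 CPM) followed (adjusted p = 0.00812, 19.3%). Itgal was led by NK cells (292 CPM), which did not differ from T cells (140.4 CPM; adjusted p = 0.182). T cells lay below neutrophils (139 CPM) in the fit, against the order of the means (-1.25, adjusted p = 0.00981), and neutrophils stood above monocytes or macrophages by 2.52 (adjusted p = 3.48e-06). Itgb1 was highest in mural cells (1049 CPM), lowest in neutrophils (143 CPM), and 0 of its 11 neighbouring pairs differed. Itgb2 was led by monocytes or macrophages (251 CPM) and neutrophils (197 CPM), which did not differ, while neutrophils passed over NK cells (195 CPM; adjusted p = 0.00322) and B cells (62.8 CPM) over arterial cells (11.3 CPM; adjusted p = 0.00691, 21.5% of genes).

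Other genes shared these patterns over the 36 sums of a class in a library, among 8341 genes. The points share libraries and depth, and the correlations of log2(CPM + 1) are a description. Closest to Vcam1 were Ly6a (Pearson r = 0.855), Flt1 (0.854) and Cx3cl1 (0.852), and closest to Icam2 were Egfl7 (0.950), Fam110d (0.931) and Tie1 (0.926). Flt1, Egfl7 and Tie1 are themselves markers of the endothelial gate, so their pattern over classes is partly set by that gate. Icam1 was nearest to 9930111J21Rik2 (0.815), Sele to Aplnr (0.787), and Selp to Lrg1 (0.805), which is itself 1 of the venous markers. Itga4 was nearest to Dock10 (0.932), Itgb1 to Kif5b (0.912), Itgal to Ankrd44 (0.907) and Itgb2 to Ptpn6 (0.946).

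Of 24 other endothelial adhesion and passage genes tested in endothelial cells, 4 rose and 0 fell (2.66% and 1.28% of all genes tested), with a list median of -0.46 on the log2 scale beside 0.00 for all genes tested. Cx3cl1, a membrane-bound chemokine that also holds leukocytes, was at 210.4, 224 and 92.3 CPM against 10.7 (log2 difference 4.10, adjusted p = 0.0304). Cd44 (1.75, adjusted p = 0.0194), Pvr (1.70, adjusted p = 0.0249) and Cd47 (1.44, adjusted p = 0.0394) were the others. The same 4 rose among 21 tested in capillary cells, where Aoc3, an adhesion molecule with amine oxidase activity, fell (-4.40, adjusted p = 0.0137). The mural marker Rgs5 was also lower in allogeneic capillary cells, at 0.866, 1.98 and 7.22 CPM against 55.7. The part of mural transcripts in the fall of Aoc3 was not tested. Of all genes tested in capillary cells, 4.4% rose and 3.96% fell. Genes of the endothelial junctions such as Pecam1 (-0.34, adjusted p = 0.453) and Cdh5 (-0.17, adjusted p = 0.695) did not pass. Among 12 other integrin chains tested, Itga1, a collagen receptor chain, rose from 126 to 452, 397 and 420 CPM (1.80, adjusted p = 0.0147) and 0 fell. None of 18 genes of integrin activation inside the cell passed in endothelial cells.

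NF-kB targets and feedback genes had a median log2 difference of 1.11 in endothelial cells, where 4 of 20 rose and 0 fell beside the 2.66% and 1.28% of all genes. The 4 were Ccl5 (193, 164 and 163.5 CPM against 2.40), Irf1 (772.5, 835 and 962 against 128), Csf1 (101, 122 and 146 against 46.6) and Nfkb2 (51.9, 57.0 and 58.9 against 24.6). Ccl5 and Irf1 are also interferon targets. Ccl5 is strong in T cells as well, and the part of leukocyte transcripts in its endothelial rise was not tested. The feedback gene Nfkbia did not pass (0.41, adjusted p = 0.410). In mural cells 6 of 19 rose and 0 fell (3.19% and 0.78% of all genes), with a median of 1.47 beside 0.06 for all genes. They included Irf1 (507, 493.5 and 801.5 CPM against 71.4), Il6 (593, 112 and 279.5 against 25.3) and Ccl2 (5743, 555 and 7551 against 82.4), while Ccl5, a gene also strong in T cells, had no UMI in isogeneic mural cells. Other classes held falls. In capillary cells 7 of 20 rose (median 0.87) while the chemokines Cxcl1 (-1.84) and Cxcl2 (-1.53) fell, beside 4.4% and 3.96% of all genes. These chemokines went from 67.4 and 266 CPM in the isogeneic graft to at most 37.1 and 104 CPM. In leukocytes 7 of 20 rose (median 0.65) and Cxcl1 (-3.47) and Ccl2 (-1.85) fell, beside 3.86% and 3.93% of all genes. In monocytes or macrophages 7 of 20 rose and Cxcl1 (-2.87) fell, beside 3.89% and 2.75%. In neutrophils 3 of 19 rose and 0 fell (5.49% and 0.795% of all genes), and in T cells 0 of 20 passed. None of 14 receptors of the inducing cytokines passed in endothelial cells, and of 12 shedding and glycocalyx genes Timp3, which blocks sheddases, rose (2.26, adjusted p = 0.00693) and Sdc1 fell (-2.76, adjusted p = 0.0368).

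Of 15 genes linked to tissue dissociation, 7 fell in leukocytes and 0 rose (3.93% and 3.86% of all genes), with a list median of -1.39 beside -0.02 for all genes. They included Fos, at 660, 692 and 879 CPM against 1875, and Atf3, at 729, 792 and 1190 CPM against 2818. In capillary cells Fosb (-1.42) and Ier3 (-1.08) fell, in monocytes or macrophages Ier2 (-1.20) and in neutrophils Fosb (-2.34), with 0 rises in each. Of all genes 3.96%, 2.75% and 0.795% fell in these classes, in that order. In all endothelial, mural and T cells 0 of the 15 passed. The part of these genes' difference in the results of the 9 members was not tested.

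Transcripts of leukocytes in endothelial cells were measured beside these results. The 13 leukocyte reference genes summed to 833, 1025 and 464 CPM in allogeneic endothelial cells and 852 in isogeneic ones, with all 13 detected in every library. The list's median log2 difference was 0.72 (0 of 12 passed), and 0.85 in capillary cells, where Cd52 and Trbc2 rose and 0 of 12 fell (4.4% and 3.96% of all genes). The 8 heart muscle genes summed to 125, 129 and 49.5 CPM in allogeneic endothelial cells against 36.4 with no overlap, and 0 of 8 passed (1, Tnnt2, rose in capillary cells). The fibroblast genes summed to 29.2, 96.3 and 472.5 CPM against 458, and the 3 mural genes to 3.58, 3.04 and 19.3 against 60.1. The part of these transcripts in the endothelial results was not tested. Cells that passed both the endothelial and the leukocyte gate, 149, 396 and 192 in allogeneic and 205 in the isogeneic library, were left out of all classes.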

How the data were processed

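The 4 libraries were made with the 10x Genomics Chromium single-cell kit, per the labels' protocols. The authors deposited raw UMI counts per gene and cell barcode for 34097 genes. The file headers name Cell Ranger 6.1.0, whereas Cell Ranger 3.1.0 and mm10 are listed in the submitters' processing notes. The strand setting of the counting was not given in the sources used here. Antisense genes overlap Vcam1 (Gm43109), Icam1 (Gm47079), Selp (Gm16587 and Gm16548) and Itga4 (Cerkl).

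Barcodes with at least 500 UMIs, at least 300 genes and at most 20% mitochondrial UMIs were kept, 4983, 8215 and 6311 from allogeneic grafts and 11386 from the isogeneic graft. Each lineage gate needed 5 of 10 or 6 of 12 or 13 markers detected. Endothelial subsets and leukocyte classes went to the list with the largest share of markers detected (at least 2 and 3 markers), with ties left unassigned. Cells passing 2 gates (278, 613, 1205 and 1796) and leukocytes whose second class reached 50% of its markers were left out as possible doublets. No doublet caller was run. The markers, the 9 genes, the gene lists and the tests were chosen with earlier results of these data known, and the gate rule after the files were seen. The named genes were the 9, the up to 4 largest rises and falls passing per list, and the 3 nearest genes in pattern.

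UMIs were summed per class and library and tested with edgeR 4.0.16 (R 4.3.3; TMM, filterByExpr, quasi-likelihood F-test), with Benjamini-Hochberg adjustment over all genes tested. Classes with at least 20 cells in every library were tested. Venous cells were tested on 3 libraries, and mural cells in spite of the 15 cells of allogeneic replicate 1. Each SE was taken from the fold change and the F statistic and is approximate. On simulated counts the endothelial test recovered 12% of genes changed by 1, 94% by 2 and 100% by 3 on the log2 scale (11734 genes), and the mural test 0%, 40% and 100% (4032 genes). The changed genes were taken from the more highly expressed ones, and all genes were given the same spread between libraries. Recovery of genes with low counts or a wider spread was therefore not measured. Alternatives were DESeq2 1.42.0, no TMM, no filter, other gates and cell filters, thinning, and leaving out each allogeneic library. Intervals are exact, at 95%, and cover counting error only. In GENCODE M21 (GRCm38) Vcam1 lies at chr3:116109949-116129688, Icam1 at chr9:21015985-21028817, Icam2 at chr11:106377656-106388075, Sele at chr1:164048234-164057677, Selp at chr1:164115264-164150026, Itga4 at chr2:79255426-79333123, Itgb1 at chr8:128685654-128733200, Itgal at chr7:127296260-127335138 and Itgb2 at chr10:77530252-77565708, all protein coding.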

Additional observations from a re-analysis of the deposited data

Results flagged for a closer look

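Vcam1 differed more between the grafts in capillary than in venous endothelial cells, with a venous minus capillary difference of the allogeneic effects of -2.08 (SE 0.27, adjusted p = 4.45e-11 by edgeR's quasi-likelihood test on 3 libraries). Capillary cells went from 61.1 CPM in the isogeneic library to 1458 and 1547 CPM in allogeneic replicates 2 and 3, and venous cells from 380.2 to 1843 and 2620 CPM.

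Selp had allogeneic effects of different size in endothelial cells and leukocytes, a difference of -2.91 (SE 0.43, adjusted p = 0.00738), where 4.98% of 16626 genes passed. Endothelial Selp was at 11.3, 13.6 and 88.1 CPM in allogeneic and 136 CPM in isogeneic cells, and leukocyte Selp at 0.916, 0.888 and 4.35 CPM against 0.970. The leukocyte values rest on 38, 41, 74 and 15 UMIs. Against monocytes or macrophages the Selp difference was -5.43 (SE 0.59, adjusted p = 0.00176, 3.53% of 15382 genes), with 25, 27, 44 and 3 UMIs in that class. This pairing was chosen after seeing the data. The venous share of endothelial cells, 3.05%, 4.83%, 16.0% and 28.4%, moved with the endothelial values, and its part in these differences was not tested.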

How the results depend on the processing

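Vcam1 in endothelial, capillary, arterial and venous cells kept its direction and its call under every alternative run (2.90 to 3.21 in all endothelial cells). Of 887 values of the 9 genes recomputed, 788 kept their direction and side of the threshold, 38 newly passed, 9 no longer passed, and 52 changed sign, 0 of them past the threshold in either fit. Selp in leukocytes, 0.79 on all libraries, was -0.25 to 1.16 with 1 allogeneic library left out, and it passed in none of these fits. In endothelial cells Selp was -2.76 after thinning (adjusted p = 0.00527) and Icam1 1.19 with DESeq2 and 1.19 with no filter (adjusted p = 0.00729 and 0.0223). Mural Vcam1 was 1.88 with cells of 2 gates kept. In monocytes or macrophages Vcam1 passed with DESeq2 (3.86), no filter (3.92), a gate of 1 marker more (3.98), cells of 2 gates kept (2.66) and thinning (3.88), and Itgb2 with DESeq2 (2.18) and no filter (2.24). Neutrophil Icam1 was lost with no filter (2.76), a gate of 1 marker fewer (2.14) and cells of 2 gates kept (2.39), and the venous over capillary difference of Icam1 in allogeneic libraries alone (0.65). Counts over all alternatives include the fits that left out a library. In endothelial cells Sele kept its side of the threshold in 13 of 14 alternatives, Selp in 12 and Icam1 in 11. In monocytes or macrophages Vcam1 kept it in 5 of 13 and Itgb2 in 10. In the remaining alternatives each of these newly passed. The cause was not tested. The count of genes passing, 477 in endothelial and 183 in mural cells, was 1164 and 294 with no filter. It was 287 in endothelial cells with cells of 2 gates kept and 109 in mural cells after thinning. DESeq2 called 494 genes in capillary, 220 in arterial, 144 in venous and 2875 in all leukocytes, against 897, 573, 332 and 1360 by edgeR.

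Leaving out 1 allogeneic library gave -1.53 to -0.47 for endothelial Sele, -3.31 to -1.40 for Selp and 1.11 to 1.34 for Icam1. It gave 3.58 to 4.20 for Vcam1, 1.98 to 2.41 for Itgb2 and 1.26 to 1.32 for Icam1 in monocytes or macrophages, and 2.32 to 2.94 for neutrophil Icam1. The count of genes passing ran from 156 to 4478 in endothelial cells, highest without replicate 3, and from 187 to 540 in mural cells. Of 48 shares recomputed without thinning or at 1000 UMIs per cell, 45 moved beyond their interval. No paired analysis was possible because the groups share only replicate number 2. With 1 isogeneic library, a feature of that library and of isogeneic grafts cannot be told apart.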
